A study of Sus scrofa with 15 samples.

Results

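Small RNA sequencing of pig peripheral whole blood was used to compare 6 libraries of mature animals with 6 libraries of juvenile animals. The juvenile libraries came from domestic pigs aged 30 days (weaning) and 60 days, and the mature libraries from pigs aged 180 and 360 days, which the study describes as sexually mature. Each age had 3 biological replicates. These 12 libraries are all those of the series other than its 3 newborn (day 0) libraries, 15 in total, and were chosen by age alone. No treatment or genotype separates the groups, and neither breed, sex nor sorting of cells is described in the sources used here, so that each library stands for unsorted blood. They also do not say whether the same animals were bled at several ages. The p-values below set the difference between stages against the spread between these libraries, which were treated as independent.

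Mature microRNAs (miRNAs) are short RNAs cut from hairpin precursors. They guide Argonaute proteins to messenger RNAs, whose translation and stability they lower, and miRNAs with the same seed, the bases near the 5′ end that pair with the target, share many targets. Several are transcribed together from clusters that arose by duplication. In whole blood the erythroid miR-451 is abundant, and leukocytes and platelets add their own miRNAs. A level in whole blood therefore depends on cell composition as well as on expression: fewer cells of a type and less RNA per cell cannot be told apart here.

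The listed counts summed to between 7175794 and 9977755 per library, and the limit that a miRNA with no count allows, 3 counts, was worth 0.301 to 0.418 CPM (counts scaled to the library total) before TMM scaling, counting error only. Levels below are CPM scaled with TMM factors, which set the bulk of miRNAs equal between libraries (normalised CPM). The TMM factor was lower in mature libraries, at 0.681 to 0.930 against 0.858 to 1.99 in juvenile libraries, a difference of means of -0.513 (exact 2-sided permutation test, p = 0.00649). These factors enter the levels and fold changes below unless another scaling is named. The 10 most abundant miRNAs held 84.1% to 87.5% of the counts of mature libraries and 70.3% to 85.7% of juvenile ones (exact 2-sided permutation test, p = 0.00866). The share of miR-451 was 28.8% to 49.3% in mature and 28.3% to 41.1% in juvenile libraries, and these ranges overlapped (difference of means 4.87 percentage points, exact 2-sided permutation test, p = 0.240). Fewer miRNAs were detected with at least 1 count at maturity, 230 to 246 against 248 to 256 of 293, with no overlap (exact 2-sided permutation test, p = 0.00216, the smallest that 6 libraries against 6 allow). With at least 10 counts the numbers were 188 to 202 in mature and 195 to 210 in juvenile libraries, which overlapped. The median of the total counts was 9226780 in mature and 8298180 in juvenile libraries (exact 2-sided permutation test, p = 0.152), and the counts outside the 10 most abundant miRNAs had a median of 1336060 in mature and 1700450 in juvenile libraries. Of the 293 miRNAs, 54 were detected in more juvenile than mature libraries and 15 in more mature than juvenile ones. The largest such gap was that of miR-1839-3p, detected in 6 juvenile libraries and 1 mature library with at most 4 counts in any. Along the first principal components of log2 levels (36.2% and 18.3% of the variance), day 360 replicate 3 lay apart from the rest on the first and day 360 replicate 2 on the second.

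**Figure D1:**
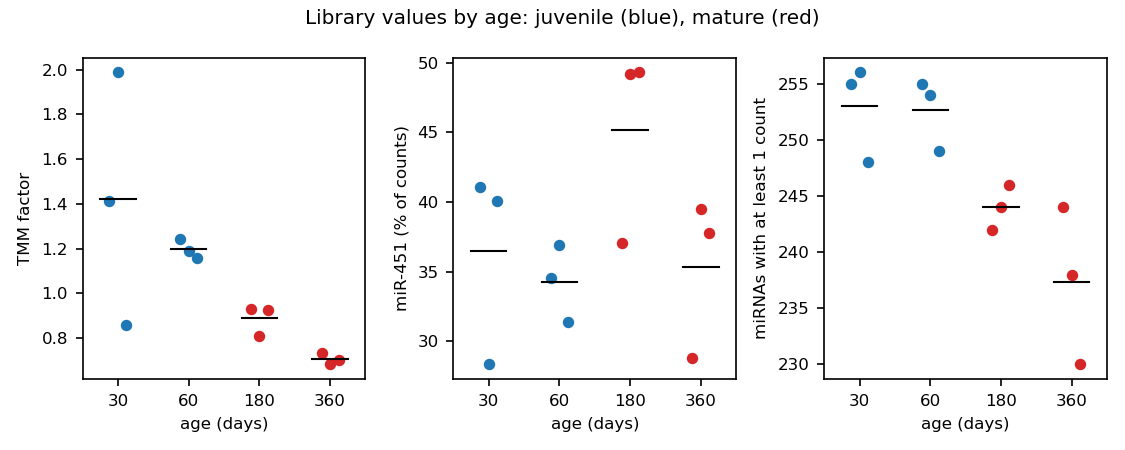
TMM factor, share of miR-451 in the listed counts (percent) and number of miRNAs with at least 1 count, plotted against age in days for 3 libraries per age (points) with their mean (lines). All mature libraries lie below all juvenile libraries in the number of miRNAs detected (246 or fewer against 248 or more), while the shares of miR-451 overlap.

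Of 200 miRNAs tested, 9 differed between mature and juvenile blood (4.5%; edgeR quasi-likelihood test, Benjamini-Hochberg adjusted p under 0.05), and 36 (18%) had an unadjusted p under 0.05. At maturity 3 (1.5%) rose: let-7f, miR-10a-5p and miR-125a. Lower were 6 (3%): miR-210, miR-7857-3p, miR-20b, miR-106a, miR-363 and miR-148b-3p. Over all tested miRNAs the median log2 fold change (mature minus juvenile) was 0.03, with 102 (51%) above 0. The 2 groups of libraries did not overlap for 5 of the 9, beside 7 (3.5%) of all 200. This depended on scaling: in CPM without TMM factors the 6 falls did not overlap, whereas the 3 rises did. On that scale 168 of the 200 fold changes lay below 0, and the share of all 200 without overlap was not counted. The 6 falls passed under each of the 4 scalings tried (TMM, DESeq2 size factors, TMM without the 3 miRNAs over 10% of a library, and library totals). The 3 rises did not pass with library totals, under which the median of all miRNAs moved to -0.72 and the split was 0 higher and 45 lower. In normalised CPM, both mature ages had means on the same side of both juvenile ages for all 9. On that scale 17% of all 200 tested miRNAs had both mature means above and 21% below both juvenile means. The 9 were chosen by the difference between stages in these same libraries. Neither this order nor the lack of overlap is therefore separate support for it. The order of age means without TMM factors was not examined. Without 1 library the number called lay between 2 and 9. It was 2 without day 30 replicate 2, day 60 replicate 2 or day 360 replicate 3, 4 without day 180 replicate 1, day 180 replicate 2 or day 360 replicate 1, and 5 without day 60 replicate 1. Only miR-210 and miR-7857-3p were called in all 12 of these runs. Without both day 360 replicates 2 and 3, 3 were called: these and miR-148b-3p.

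**Figure D2:**
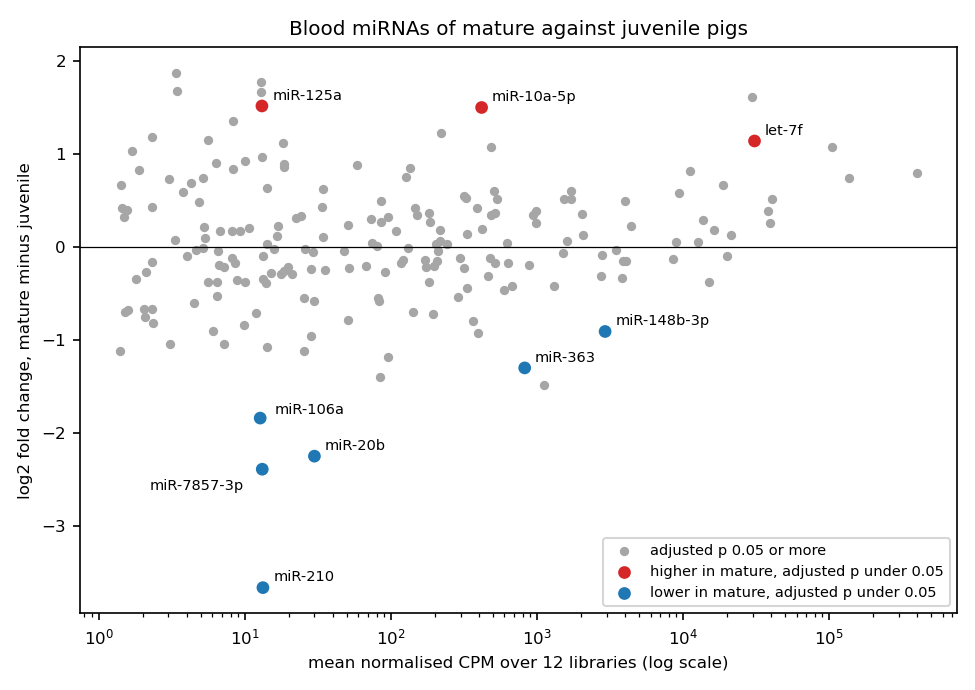
Log2 fold change (mature minus juvenile) against mean normalised CPM over 12 libraries on a log axis, for the 200 tested miRNAs. The 9 miRNAs with adjusted p under 0.05 are named, 3 higher (red) and 6 lower (blue) in mature blood, and grey points did not pass.

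The fall of miR-210 was the largest. This miRNA is induced by hypoxia through HIF and represses genes of mitochondrial respiration. Its lowest, median and highest juvenile levels were 6.09, 20.6 and 61.7 normalised CPM, and its mature levels 0.531, 1.89 and 3.43. The groups did not overlap, and the means were ordered by age, at 37.3 for day 30, 12.2 for day 60, 2.19 for day 180 and 1.64 for day 360 (steps between ages of 1 stage were not tested). The log2 fold change was -3.66 ± 0.57 (SE, n = 6 per group; edgeR adjusted p = 0.00186). Counts behind these levels were 59 to 989 in juvenile libraries, but only 3 to 25 in mature ones. Without 1 library the change lay between -3.90 and -3.15, and it was -2.63 without day 30 (adjusted p = 0.0357).

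A fall of the same kind was measured for miR-7857-3p, named here after its values were known. Juvenile libraries were at 12.2, 17.5 and 36.2 normalised CPM (lowest, median, highest) and mature libraries at 1.59, 4.04 and 7.55. The highest mature library lay below the lowest juvenile one, and the log2 fold change was -2.39 ± 0.41 (SE, n = 6 per group; edgeR adjusted p = 0.00297). The means of both juvenile ages were close, 21.9 at day 30 and 22.4 at day 60, as were those of both mature ages, 3.78 at day 180 and 4.64 at day 360, while the means of miR-210 differed more between day 30 and day 60 (neither tested). Both miRNAs also passed a test for a change of more than 1.5-fold, the only 2 that did.

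Another 3 of the falls, miR-20b, miR-106a and miR-363, are neighbours. In the RefSeq gene table of the pig assembly Sscrofa11.1 they belong to a group of 6 miRNA genes that lie within 10 kb of the next, with miR-18b, miR-19b and miR-92a. This cluster is a duplicate of the miR-17~92 cluster, whose miRNAs promote the proliferation and survival of lymphocytes and myeloid progenitors. In that assembly the miR-106a cluster lies on the X chromosome, as does a let-7f locus beside miR-98. The sex of the animals is not described, and its part in these differences was not tested. The lowest, median and highest levels of miR-20b were 19.3, 37.4 and 131 normalised CPM in juvenile libraries and 2.65, 10.5 and 19.4 in mature ones. For miR-106a these were 9.06, 16.2 and 48.7, against 2.30, 4.70 and 10.2 at maturity. miR-363 was at 650, 949 and 2481 in juvenile libraries and at 278, 472 and 745 in mature ones. In each case the juvenile and mature ranges overlapped slightly, and the highest value was that of day 60 replicate 1. The log2 fold change was -2.25 ± 0.52 for miR-20b (adjusted p = 0.0244), -1.84 ± 0.46 for miR-106a (adjusted p = 0.0388) and -1.30 ± 0.33 for miR-363 (adjusted p = 0.0399; edgeR, SE, n = 6 per group). Without day 60 replicate 1 these were -1.61, -1.30 and -0.89, and none passed (adjusted p = 0.0776, 0.0902 and 0.0902).

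The rest of the neighbourhood did not pass the test. miR-18b was near the detection limit, at 1.91 normalised CPM on average in juvenile and 1.14 in mature libraries. Reads of miR-19b and miR-92a cannot be assigned to this cluster, because both are also encoded beside miR-17, and their log2 fold changes were 0.90 ± 0.63 and 0.26 ± 0.25. The other members of the miR-17 neighbourhood had log2 fold changes from -0.79 (miR-18a) to 1.18 (miR-19a), and none was called. Mature levels of miR-19a had a median of 1.19 and a maximum of 14.6 normalised CPM, so that 1 library lay far above the rest.

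Ratios of counts within a library do not depend on scaling. The ratio of miR-20b to its paralogue miR-20a had a median of 8.91% in juvenile libraries (5.22% to 23.1%) and of 2.31% in mature libraries (1.10% to 3.34%), without overlap. miR-106a relative to miR-17-5p was at 1.56% (1.43% to 4.43%) and 0.737% (0.463% to 0.878%), also without overlap. miR-363 relative to miR-92a was at 2.37% (1.72% to 7.89%) and 1.18% (0.380% to 2.32%), with overlap. These pairs were chosen after the values were seen and are given without a test. Paralogues differ by few bases, so that reads may have been divided between them in counting. In the calls adjusted over all miRNAs, 7 of 12 runs without 1 library ended the call of miR-20b, 9 that of miR-106a and 10 that of miR-363. Their calls remained without day 30 replicate 1 in all 3 cases, without day 60 replicate 3 and day 360 replicate 2 for miR-20b and miR-106a, without day 30 replicate 3 and day 180 replicate 3 for miR-20b, and without day 180 replicate 1 for miR-363.

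**Figure D3:**
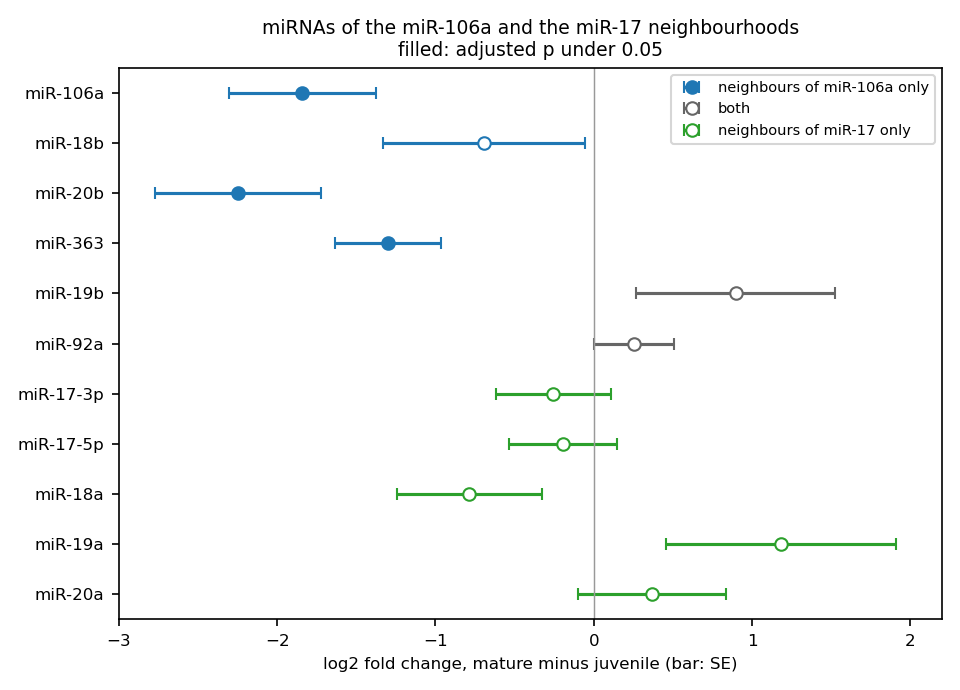
Log2 fold change (mature minus juvenile) with its SE for miRNAs encoded beside miR-106a (blue), beside miR-17 (green) or beside both (grey); filled points had adjusted p under 0.05. The 3 filled points, miR-106a, miR-20b and miR-363, are all beside miR-106a only and lie between -1.30 and -2.25.

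miR-148b-3p, a member of the miR-148 and miR-152 family, which targets the DNA methyltransferase DNMT1 and restrains antigen presentation by dendritic cells, was the most abundant of the miRNAs that fell. Juvenile libraries held 3354, 3683 and 4853 normalised CPM (lowest, median, highest) and mature libraries 1100, 2020 and 3090. The groups did not overlap (log2 fold change -0.91 ± 0.24, SE, n = 6 per group; edgeR adjusted p = 0.0404). Its relative miR-148a-3p, among the most abundant miRNAs of blood, was at 102160 ± 68048 and 170771 ± 83622 normalised CPM (SD, n = 6 per group; log2 fold change 0.74 ± 0.43, edgeR adjusted p = 0.362), and its other arm, miR-148b-5p, had a log2 fold change of 0.05 ± 0.34. There were 44.5 to 64.1 counts of the 3p arm per count of the 5p arm in juvenile libraries and 15.4 to 41.5 in mature ones, a ratio that did not overlap. Relative to miR-148a-3p, however, miR-148b-3p was at 1.5% to 8.56% and 0.662% to 4.37%, with overlap. The call of miR-148b-3p remained in 1 of 12 runs without 1 library, that without day 360 replicate 2, and the adjusted p reached 0.107 in the others, with log2 fold changes from -1.07 to -0.77 in all 12.

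**Figure D4:**
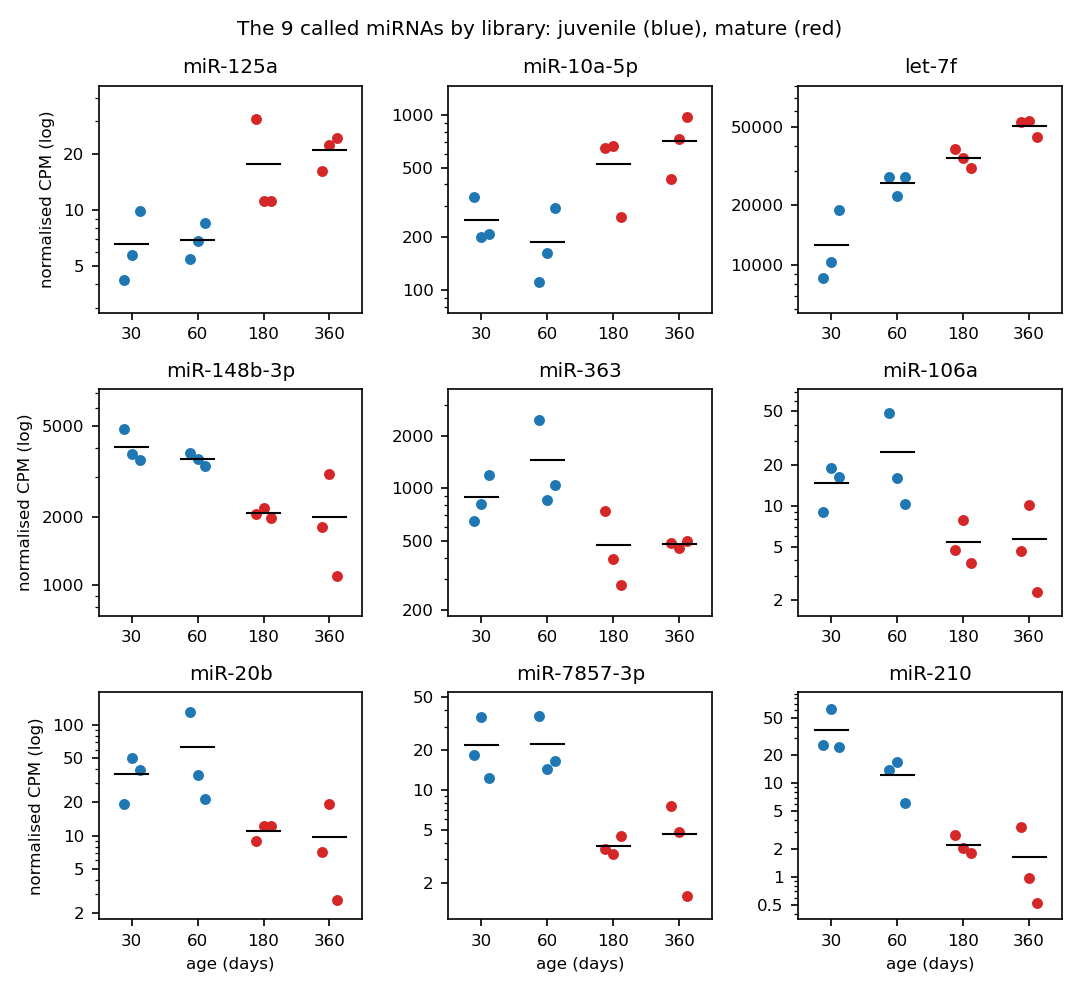
Normalised CPM on log axes against age in days for each of the 9 called miRNAs, with 3 libraries per age (points) and their mean (lines). Juvenile (blue) and mature (red) libraries do not overlap for let-7f, miR-125a, miR-148b-3p, miR-7857-3p and miR-210, and overlap for the other 4. Without TMM factors, where 168 of 200 fold changes lie below 0, the 6 falls do not overlap and the 3 rises do.

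Among the miRNAs that rose, let-7f was the most abundant. The let-7 family accumulates as cells differentiate and represses growth genes such as RAS, MYC and HMGA2. let-7f was at 8633, 20553 and 27820 normalised CPM in juvenile libraries (lowest, median, highest) and at 30852, 41428 and 53477 in mature ones. In normalised CPM its means were also ordered by age, at 12611 for day 30, 25955 for day 60, 34769 for day 180 and 50216 for day 360. Without TMM factors its levels overlapped, at 12211.4 to 34595.2 CPM in juvenile and 28105.8 to 38700.5 in mature libraries. The log2 fold change was 1.14 ± 0.31 (SE, n = 6 per group; edgeR adjusted p = 0.0426). Another abundant member, let-7i, did not overlap either, at 26491 to 92276 and 109666 to 192258 normalised CPM, but missed the threshold (1.08 ± 0.33, adjusted p = 0.0802), and ranged from 0.91 to 1.24 without 1 library. DESeq2 called let-7i (adjusted p = 0.0174). let-7f lost its call in 9 of 12 runs without 1 library, at log2 fold changes of 0.99 to 1.32 and adjusted p up to 0.103, and kept it without day 60 replicate 1, day 60 replicate 3 or day 180 replicate 3. With the replicate number as a block its adjusted p was 0.0696. Within libraries, the ratio of let-7f to let-7g was 0.445 to 0.673 in juvenile and 0.598 to 1.39 in mature blood, with overlap.

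All 9 members of the let-7 list could be tested, and 8 lay above 0 in log2 fold change, their median being 0.51 beside 0.03 for all tested miRNAs. One rose (let-7f), beside 1.5% of all tested miRNAs. Higher with an unadjusted p under 0.05 were 3 (let-7a, let-7f and let-7i), beside 19 of all 200 tested (18% of all in either direction). With library totals the direction of the family turned, with 3 of 9 members above 0 and a median of -0.21, which was 0.51 above the median of all miRNAs under that scaling and 0.48 above it under TMM. let-7g averaged 33031 and 43205 normalised CPM (log2 fold change 0.39 ± 0.28), and let-7e, the member below 0, 21.2 and 18.2. In unscaled counts the whole list made up 8.77% to 23.2% of juvenile libraries and 18% to 22.7% of mature libraries, so that these shares overlapped. Some let-7 members differ by a single base and may share reads.

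miR-125a rose as well. It is encoded with let-7e and miR-99b and controls the pool of haematopoietic stem cells and macrophage activation. Its lowest, median and highest juvenile levels were 4.24, 6.28 and 9.92 normalised CPM, and its mature levels 11.2, 19.4 and 31.0. The groups did not overlap on this scale, and the log2 fold change was 1.52 ± 0.34 (SE, n = 6 per group; edgeR adjusted p = 0.0222). The 5 tested members of the miR-99/100 and miR-125 families were all above 0, with a median of 0.82, and with library totals 3 of 5 were, with a median of 0.08. Under both scalings that median lay 0.79 above the median of all miRNAs (not tested). miR-99b, encoded beside miR-125a, averaged 4.66 and 12 (1.36 ± 0.41, adjusted p = 0.0802), whereas let-7e from the same neighbourhood had a log2 fold change of -0.22 ± 0.33. miR-99a, the most abundant member, averaged 8076 and 14227 normalised CPM (0.82 ± 0.32, adjusted p = 0.195), while miR-125b, known for its role in blood stem cells, averaged 204 and 232 (0.18 ± 0.28, adjusted p = 0.714). The ratio of miR-125a to miR-125b was 1.17% to 6.03% in juvenile and 5.04% to 11.7% in mature libraries, with overlap. miR-125a lost its call without day 30 replicate 2, day 60 replicate 2, day 180 replicate 1 or day 360 replicate 3 (adjusted p up to 0.0657).

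miR-10a-5p, encoded in a HOX gene cluster and expressed in regulatory T cells and progenitors, was the third that rose. Juvenile libraries were at 111, 204 and 339 normalised CPM (lowest, median, highest) and mature libraries at 262, 657 and 977. Only day 180 replicate 3, at 262, lay within the juvenile range. The log2 fold change was 1.5 ± 0.34 (SE, n = 6 per group; edgeR adjusted p = 0.0222). The second HOX member with an unadjusted p under 0.05 was miR-10b, at 8.91 and 17.5 normalised CPM on average (0.97 ± 0.34, adjusted p = 0.134). miR-196b-5p averaged 4.19 and 2.01 (-1.04 ± 0.54, adjusted p = 0.304), and the median of the 4 tested HOX members was 0.70, or -0.07 with library totals. That median lay 0.67 above the median of all miRNAs under TMM and 0.65 above it with library totals (not tested). There were 11.1 to 73.2 counts of miR-10a-5p per count of miR-10b in juvenile and 21.5 to 53.5 in mature libraries, with overlap. miR-10a-5p lost its call without day 30 replicate 2, day 60 replicate 2 or day 360 replicate 3 (adjusted p up to 0.0611).

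Among the lists of miRNAs typical of blood cell types, of the 6 tested erythroid members 1 fell, miR-363, which also belongs to the cluster above, and none rose. No member of the other blood lists was called, beside 4.5% of all tested miRNAs, and these counts are too small to be told from that share. miR-451 averaged 293191 ± 103969 and 508881 ± 91699 normalised CPM (SD, n = 6 per group; log2 fold change 0.80 ± 0.26, edgeR adjusted p = 0.104), and was called by DESeq2 (adjusted p = 0.0386) and without day 30 replicate 3 (adjusted p = 0.0440). miR-144, cut from the same transcript as miR-451, averaged 80.3 and 80.7 normalised CPM (0.01 ± 0.43), and miR-486, which supports red-cell maturation, 20290 and 22249 (0.13 ± 0.29).

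None of the 8 tested lymphoid members was called, 6 of them below 0, with a median of -0.20 and a range from -0.42 to 0.52. miR-150, high in resting B and T cells, averaged 1411 and 2021 normalised CPM (0.52 ± 0.25, adjusted p = 0.283), while miR-155-5p, which rises when lymphocytes are activated, averaged 126 and 168 (0.41 ± 0.26). The level of miR-181a, which sets the sensitivity of T-cell receptors, averaged 4280 and 3393 (-0.34 ± 0.25, adjusted p = 0.493). The 7 tested myeloid members likewise held no call and had a median of -0.11; miR-24-3p, the most abundant, averaged 856 and 1116 (0.38 ± 0.47). In the innate immune response list none of 5 was called, among them miR-146a-5p, which dampens NF-kB activation, at 1564 and 1637 (0.07 ± 0.27), and miR-21 at 3353 and 4706 (0.49 ± 0.40).

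The platelet list had no call among 13 tested members, with a median of 0.03. miR-151-3p averaged 14639 and 44604 normalised CPM (1.61 ± 0.57, adjusted p = 0.138), but its mature levels were 11210, 20693 and 109759 (lowest, median, highest), so that 4 mature libraries lay within the juvenile range of 4815 to 23855 and 2, day 360 replicates 1 and 3, above it. Without the day 180 libraries it was called (log2 fold change 2.31, adjusted p = 0.0269). miR-126-3p, an endothelial and platelet miRNA, averaged 168 and 203 (0.27 ± 0.32). miR-199a-3p was at 9.67 and 4.69 (-1.04 ± 0.34, adjusted p = 0.104).

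Families that act across tissues held no further call. The miR-30 family had 7 of 10 tested members below 0, beside 98 of all 200, and none called. Lower with an unadjusted p under 0.05 were 3 of them, beside 17 of all 200. These were both arms of miR-30a, and miR-30c-3p at only 1.95 and 0.868 normalised CPM on average. miR-30a-5p, at 1650 and 588 normalised CPM (-1.49 ± 0.58, adjusted p = 0.186), was called with a coefficient per age, while miR-30d, the most abundant, averaged 20634 and 19243 (-0.10 ± 0.20). No member of the miR-29 family (3 tested) or of the miR-15/16 family (3 tested, all below 0, from -0.17 to -0.15) was called, with miR-29a at 690 and 500 (-0.46 ± 0.32) and miR-15b at 4296 and 3874 (-0.15 ± 0.22). The miR-23/27/24 clusters had 6 of 8 members above 0 (1 of 8 with library totals) and no call, and miR-27b-3p averaged 1364 and 2076 (0.61 ± 0.72). Of the miR-532/500 cluster of the X chromosome, 4 members were tested without a call, and miR-532-5p averaged 437 and 627 (0.52 ± 0.25, adjusted p = 0.285). In the brain list, miR-7, which is among the 6 most abundant miRNAs of these libraries, averaged 33604 and 48020 (0.51 ± 0.47), and none of 3 was called. miR-92a, likewise among those 6, averaged 35721 and 42668. With library totals 168 of all 200 tested miRNAs lay below 0, with a median of -0.72. So did all lymphoid, miR-30, miR-29, miR-532/500, brain and innate immune members, and all but 1 of the erythroid (median -1.07), myeloid and platelet members. Relative to the median of all miRNAs, the lymphoid median was -0.26 (-0.23 under TMM) and the erythroid median -0.36 (-0.25). The brain median was 0.20 above it under both scalings, and the median of the miR-23/27/24 clusters 0.31 above it (0.32 under TMM).

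**Figure D5:**
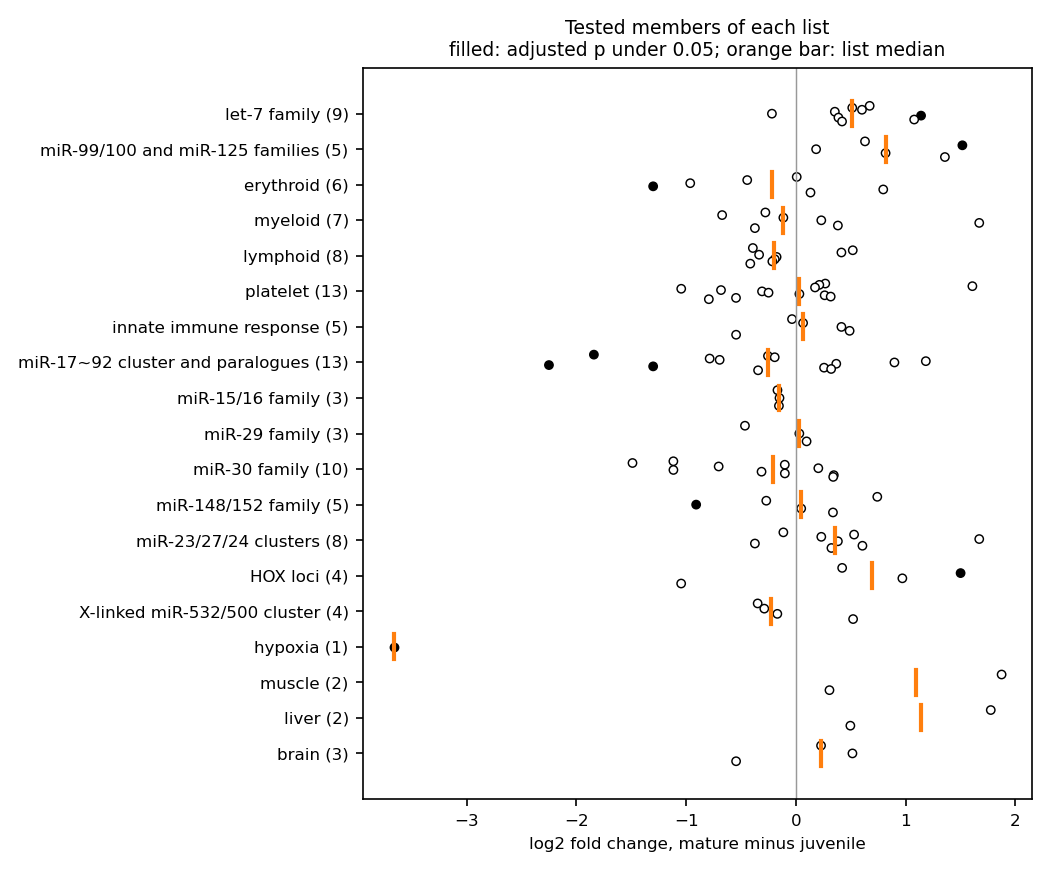
Log2 fold change (mature minus juvenile) of the tested members of each list (number tested in brackets); filled points had adjusted p under 0.05 and orange bars are list medians. The let-7 and the miR-99/100 and miR-125 lists have medians of 0.51 and 0.82, and the 3 filled points of the miR-17~92 list are miR-20b, miR-106a and miR-363.

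Other lists stood for muscle, liver, epithelium and the imprinted DLK1-DIO3 cluster. None of the 12 listed members of the imprinted DLK1-DIO3 cluster and none of the 2 epithelial members passed the filter on low counts, and their summed levels were at most 3.07 and 0.578 normalised CPM in any of the 12 libraries. Among muscle miRNAs, 2 of 6 were tested, without a call: miR-499-5p averaged 65.9 and 81.5 (0.31 ± 0.33), and miR-1 1.46 and 5.36 normalised CPM (1.87 ± 0.76, adjusted p = 0.208). miR-206, specific to skeletal muscle, did not pass the filter, and its counts were 0 to 4 in juvenile libraries, 2 to 25 at day 180 and 29 to 108 at day 360. It was called where no filter was applied, with TPM, with the newborn libraries in the fit, without day 180 and without day 30 replicates 1 and 2, and not elsewhere. Of the 3 liver members, 2 were tested and none called, with miR-192 at 70.6 and 99.6 (0.50 ± 0.43) and miR-122 at 5.82 and 20 (1.77 ± 0.76, adjusted p = 0.239). Their part in the other differences was not tested.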

How the data were processed

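Read counts per named pig miRNA and TPM values were deposited as 1 table by the authors. The submitters' processing notes name CASAVA 1.8.2 and HISAT2 2.0.4 but give no roles. Which tool counted the reads, with which miRNA annotation and genome build, is not given in the sources used here. The deposited TPM values were proportional to the counts within each library (checked on miRNAs with at least 1000 counts), with no length term, and served only as an alternative. Of 295 miRNAs, 2 that repeat another in every library (miR-199b-3p and miR-9-1) were dropped, leaving 293. No molecular identifiers are mentioned, so counting error is a lower limit on the error.

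The tests used edgeR 4.0.16 under R 4.3.3. Its expression filter by stage, with a minimum count of 10 and a minimum total of 15, left 200 miRNAs to test and removed 93. TMM scaling and a quasi-likelihood fit with 1 term for stage followed, so that differences between ages of a stage count as spread. Benjamini-Hochberg adjustment ran over all tested miRNAs, and an adjusted p under 0.05 is a call. The SE is the log2 fold change divided by the square root of F. Single library values were compared by exact permutation over 924 regroupings. On 10 simulated datasets of these 12 libraries (203 miRNAs tested on average, 20 changed per fold size), the share called was 47.5% at 2-fold, 96.5% at 4-fold and 99.5% at 8-fold, and 3.75% of calls were false. All fold sizes were changed in the same dataset, with as many rises as falls. That is more changed miRNAs than were called here, so these shares may not carry over to the comparison.

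Named miRNAs are called miRNAs with a mean of at least 50 normalised CPM in either stage (up to 12 rises and 12 falls), the 6 most abundant, called list members, and the most abundant tested member of each other list. Further miRNAs were named after their values were seen. List names were matched exactly before the arm or locus number. Members and lists were chosen with earlier results of these data known. Some miRNAs on the lists were not analysed here. Of the 293, 274 matched a RefSeq miRNA gene (Sscrofa11.1), used only for neighbours, with no coordinates or sequences printed.

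Alternatives were other scalings, filters, tests (DESeq2 1.42.0, limma 3.58.1 with voom or on log2(TPM + 1) for miRNAs with a mean TPM of at least 1), designs and libraries. Replicate numbers are shared between ages, but deviations from the age means did not follow them. Correlations were -0.31 to 0.53 for same-numbered pairs (median 0.049) and -0.53 to 0.54 for other pairs (median -0.0029). The numbers are not said to name animals, so this cannot show whether the same animals were bled at several ages. Libraries were not treated as paired.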

Additional observations from a re-analysis of the deposited data

Results flagged for a closer look

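In 60 groups of 6 libraries (the named miRNAs and 4 library values in each stage), 1 library stood apart from the other 5 of its group beyond the 95% limit of Dixon's test, where chance alone would give about 1 in 20 groups. It was day 30 replicate 1, with 4853 normalised CPM of miR-148b-3p, while the other juvenile libraries held 3354 to 3830. Without it miR-148b-3p had a log2 fold change of -0.83 (edgeR adjusted p = 0.0868).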

How the results depend on the processing

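All 9 calls kept their direction under every alternative in which they could be tested, and miR-210 and miR-7857-3p kept their call too (miR-210 did not pass the filter of at least 10 CPM in 6 libraries). The number called, 9, became 45 with library totals, 29 with limma on TPM, 19 with DESeq2 (all 9 among them), 2 for a change of more than 1.5-fold, 2 without day 30, 3 without day 60, 2 without day 360 and 2 to 9 without 1 library. Left out together after seeing the data, day 360 replicates 2 and 3 gave 3, and day 30 replicates 1 and 2 gave 6. Other settings gave 7 to 12. With the replicate number as a block 8 were called, all but let-7f, and no other call changed. Causes were not tested.

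Signs turned only for miRNAs that were not called. With library totals, and with limma on TPM, log2 fold changes became -0.12 and -0.38 for miR-7, -0.45 and -0.48 for miR-92a, -0.26 and -0.20 for let-7g, -0.39 and -0.49 for miR-24-3p, -0.27 and -0.47 for miR-21, -0.21 and -0.22 for miR-27b-3p, -0.19 and -0.18 for miR-532-5p, -0.42 and -0.42 for miR-499-5p, and -0.25 and -0.52 for miR-192. Without day 360 they became -0.25 for miR-7, -0.65 for miR-24-3p, -0.019 for miR-21, -1.22 for miR-27b-3p, -0.20 for miR-499-5p and -0.32 for miR-192. miR-30d reached 0.031 without day 30 and 0.064 without day 180, and without day 60 miR-15b reached 0.086 and miR-29a 0.076. Without 1 library, miR-15b ranged from -0.24 to 0.016, miR-24-3p from -0.0062 to 0.69, miR-27b-3p from -0.074 to 1.53 and miR-192 from -0.081 to 0.67.

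The difference in TMM factors and in miRNAs detected with at least 1 count passed, and that in the share of miR-451 did not, in every run without 1 library. Changes near 2-fold were often missed on simulated counts, so the absence of a call does not show equal levels.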

Other observations

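Both arms of a hairpin were tested in 34 cases, and in 21 their log2 fold changes had the same sign. As 51% of all tested miRNAs lay above 0, many unrelated pairs would share a sign too, and an excess was not tested. Both arms of miR-30a were lower at maturity (-1.49 ± 0.58 for the 5p and -1.12 ± 0.47 for the 3p arm), each with an unadjusted p under 0.05 but not past the adjusted threshold (0.186 and 0.225). miR-2320-5p did not overlap between the groups, at 91.1 to 189 normalised CPM in juvenile and 20.2 to 90.8 in mature libraries (-1.18 ± 0.34, edgeR adjusted p = 0.0589), while miR-2320-3p of the same hairpin had a log2 fold change of 0.76 ± 0.56. Of all tested miRNAs, 7 (3.5%) did not overlap between the groups: the 5 of these with a call, let-7i and miR-2320-5p. miR-101, which targets EZH2, averaged 132 and 310 normalised CPM (1.23 ± 0.38, adjusted p = 0.0802).

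The 3 newborn libraries were outside the comparison, and their levels were scaled together with the other 12. Day 0 replicate 3, whose value is given last for each miRNA below, stood apart from the other newborn libraries, with a share of miR-451 of 59.4% against 7.47% and 8.97%. miR-210 was at 122, 123 and 134 normalised CPM in them, above its means on that scale of 27.5 in juvenile and 2.07 in mature libraries. miR-10a-5p was at 91.2, 104 and 102, below 245 and 651. let-7f was at 2835, 2345 and 10916, below 20912 and 45006. miR-148b-3p was at 19585, 23238 and 5443, above 4252 and 2187. miR-7857-3p was at 52.8, 69.9 and 20.7, with 24.2 in juvenile and 4.51 in mature libraries, and miR-20b at 60.3, 34.4 and 33.6, with 53.6 and 11.3. miR-106a was at 5.14, 3.04 and 11.6 in newborns, 21.6 in juvenile and 5.93 in mature libraries, and miR-363 at 619, 428 and 427, then 1278 and 509. For both, every newborn library lay below the juvenile mean. For miR-20b only day 0 replicate 1 lay above it. miR-125a was at 59.2, 41.5 and 3.78 in newborns, with 1 newborn library below the juvenile mean of 7.47. These values are given without a test.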
